A study of Mus musculus with 13 samples.

Results

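The genes described here encode the heterotrimeric G proteins and the RGS proteins, which stand directly behind receptors such as Gpr151. They were chosen by gene symbol from the families they belong to, and 46 genes of the 22682 symbols that all 13 libraries list make up the set. There are 13 alpha subunits, 5 beta subunits, 10 gamma subunits, 16 RGS proteins and 2 proteins that bind RGS proteins of the R7 family. The rule goes by symbol and uses no measured value of these libraries.

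The libraries came from medial habenula, dissected from adult mice over 8 weeks of age, and were made by translating ribosome affinity purification (TRAP). In this method a GFP-tagged ribosomal protein is expressed in 1 cell type, here through the Chat-TRAP DW167 transgene in cholinergic neurons, and the mRNA bound to tagged ribosomes is pulled down with anti-GFP beads (the immunopurified fraction, IP). All 13 libraries carry this transgene. The 6 wild-type IP libraries (682, 852, 1091, 1092, 1093 and 1094) came from mice with an intact Gpr151 gene, the 6 knockout IP libraries (683, 855, 1099, 1100, 1101 and 1102) from Gpr151-KO mice, and the 1 wild-type input library (824) is the whole homogenate before purification. Each library pools 4 mice, or 3 for libraries 852 and 855. IP libraries 682, 683, 852 and 855 are called earlier here and those numbered 1091 to 1102 later, after their numbers and their gene lists, and each holds both genotypes in equal number. The fits use 3 library sets: 682 with 683, 852 with 855, and the 8 later libraries. The tag marks only cells that make the transgene, and fewer such cells and less RNA per cell cannot be told apart in these pools.

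A heterotrimeric G protein consists of an alpha subunit, which binds GTP when a receptor is activated, and a beta and gamma pair, which signals on its own once released. Within the Gi/o/z family, Gi and Gz alpha subunits lower cyclic AMP. Those of the Gs/olf family raise it, and those of the Gq/11 family activate phospholipase C beta. The G12/13 genes form the remaining alpha family. RGS proteins speed up GTP hydrolysis by the alpha subunit and so shorten the signal. Gpr151 is an orphan receptor of habenular neurons. The medial habenula is the source of the cholinergic projection to the interpeduncular nucleus.

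Between 28375912 and 64388596 reads were counted on genes in each library. At this depth a count of 3, taken as the smallest level that can be told from 0, corresponds to 0.0502 to 0.121 CPM, where CPM is a gene's count scaled to the library's total over the 22682 shared symbols. Levels below are in CPM, and levels of different genes are compared only after division by the gene's exon length in kb. The 12 listed markers of medial habenula neurons were all enriched in the wild-type IP over the input, while 10 of 10 oligodendrocyte and 8 of 10 astrocyte markers were depleted. Lateral habenula and thalamus markers were depleted in 7 of 10, with a summed level of 1959 to 2431 CPM in the wild-type IP and 4249 in the input. Of 4 substance P neuron markers measured, 1 was enriched and 1 depleted, and the list summed to 341 to 404 CPM against 227. Of the 3 endothelial and mural markers measured, 0 were depleted. The summed level of that list was 7.69 to 38.0 CPM in the wild-type IP and 26.5 in the input. A non-neuronal score, the average of log2(CPM + 1) over markers of other cell types, ranged from 1.54 to 2.88 in the wild-type IP, with the highest value in library 1091, and from 1.67 to 3.52 in the knockout IP, with the highest values in libraries 1099 (3.52) and 1102 (3.28). It was 4.13 in the input. No listed marker was at 0 in all 6 wild-type IP libraries, and libraries 1091, 1099 and 1102 are followed through the results.

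The ends of the proteins differ between several of the subunits whose levels are compared below, and are shown as coding sequence. They do not separate every pair. Gnai1 and Gnai2 differ there only in codons for the same amino acids, and so do the Gnao1 transcripts. The last 8 codons before the stop codon are given 5′ to 3′ from the GENCODE M21 transcripts, on the coding strand, with the fourth codon from the end in capitals. In Gi and Go alpha subunits this codon encodes the cysteine that pertussis toxin modifies. It is TGC or TGT, both cysteine codons, in Gnao1, Gnai1, Gnai2 and Gnai3, and is another codon in Gnaz, Gnas and Gnaq.
Gnao1 (transcript ENSMUST00000034198.14): aatctccggggcTGCggcttgtac
Gnao1 (transcript ENSMUST00000138659.8, other last exons): aacctacggggcTGTggactctac
Gnai1: aacctaaaagacTGTggtctcttc
Gnai2: aacctgaaggacTGTggcctcttc
Gnai3: aacttaaaggaaTGTgggctttat
Gnaz: aatctcaagtacATCggcctttgc
Gnas: catctccgccaaTACgagctgctc
Gnaq: aacctgaaggagTACaatctggtc
In gamma subunits the same position holds the cysteine to which a lipid is attached, and all 10 members have a cysteine codon there. The last codon helps set the lipid: leucine, as in most gamma subunits, goes with the longer geranylgeranyl group, and serine, as in Gng11, with farnesyl.
Gng3: aagaagttcttcTGTgcgctcctc
Gng8: aagcgactctttTGCaccctgctc
Gng2: aagaagttcttcTGCgccatcctt
Gng10: gagcccaggtccTGTgctctactt
Gng11: gaaaagggcagcTGTgtcatttca

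Among the alpha subunits, Gnao1, Gnas and Gnal had the highest levels in the purified RNA. Gnao1, which encodes Go alpha, the most abundant alpha subunit of brain, was at 257 ± 12.3 CPM per kb of exon in the wild-type IP (SD, n = 6). Gnas, which encodes Gs alpha, was at 238 ± 27.8, and Gnal, which encodes Golf alpha, the olfactory and striatal form of the Gs family, at 98.2 ± 10.9. Counts are per gene symbol, and that of Gnas pools 24 annotated transcripts, which were not told apart. The order of Gnao1 and Gnas lay within their spread, since single libraries ranged from 241 to 278 for Gnao1 and from 206 to 289 for Gnas. Gna11 followed at 40.7 ± 9.91 CPM per kb and leads the Gq/11 family. Below it came Gnai1 (29.2), Gnai2 (28.5), Gnaq (21.8) and Gnaz (21.5), whose ranges over libraries overlapped. Gna13, the leading G12/13 gene, was at 13.7 ± 1.37 and Gna12 at 5.15 ± 0.703. Gna14 and Gna15, which encode Gq-family subunits best known from epithelial and blood cells, reached at most 0.249 and 0.684 CPM in any wild-type IP library and were too low to test.

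**Figure D1:**
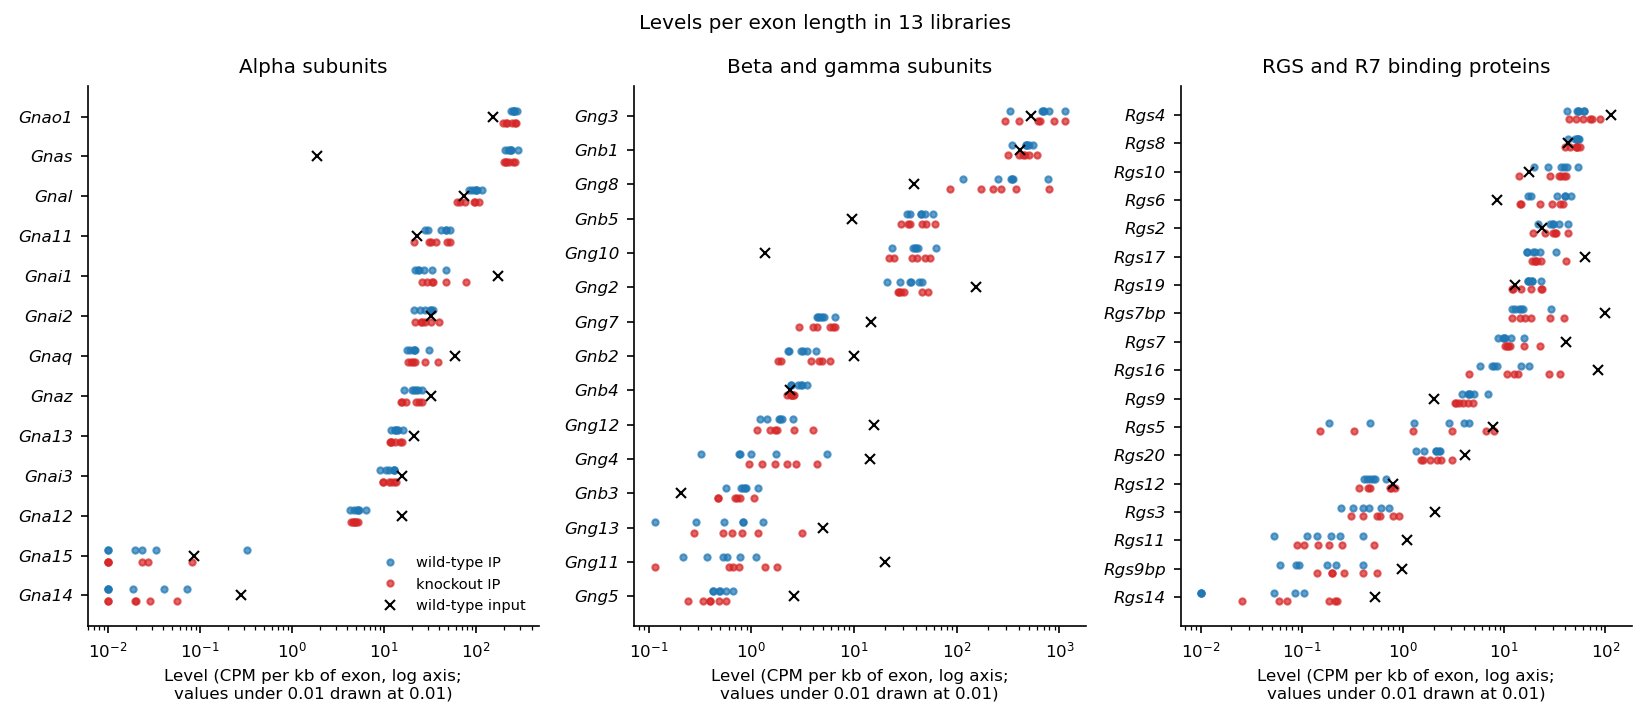
Level of each member, in CPM per kb of exon on a log axis, in every library, with wild-type IP in blue, knockout IP in red and the input as a black cross; values under 0.01 are drawn at 0.01. Gnao1, Gnas, Gng3, Gnb1 and Gng8 stand at the top, while Gnas lies far to the right of its input cross and Gnai1 to the left.

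As shares of the summed alpha level per length, the Gi/o/z family made up 45.5% ± 1.65 in the wild-type IP and 46.2% ± 2.90 in the knockout IP (SD, n = 6 each). The Gs/olf family made up 43.9% ± 1.98 and 42.9% ± 3.34, the Gq/11 family 8.17% ± 0.730 and 8.46% ± 0.672, and the G12/13 family 2.47% ± 0.173 and 2.48% ± 0.253. Each family's mean differed between genotypes by less than 1 SD. Within the pool, Gnao1 held 33.6% ± 1.06 and Gnas 31.0% ± 2.12 in the wild-type IP. With the longest transcript as the length, Gnas (42.5% ± 2.37) stood above Gnao1 (32.5% ± 1.19), and the Gi/o/z share was 39.6%, so which of the pair leads depends on the length used. Without Gnas in the pool the Gi/o/z share was 66.0% ± 1.38 in the wild-type IP, 67.2% ± 2.36 in the knockout IP and 67.8% in the input.

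**Figure D2:**
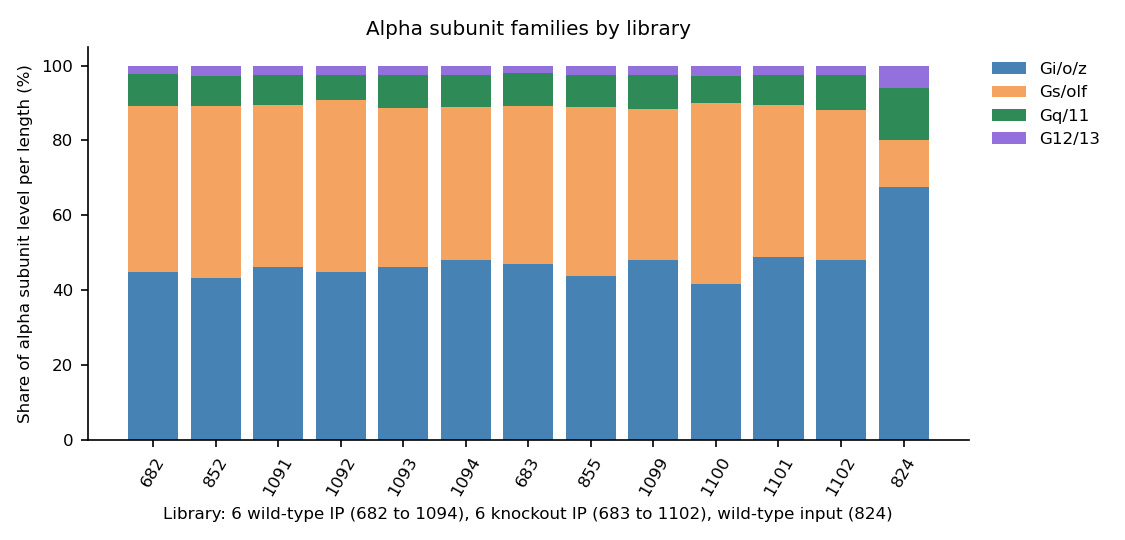
Stacked bars of the share of the summed alpha subunit level per length held by each family, in percent, for each library from left to right: 6 wild-type IP, 6 knockout IP and the input. The Gi/o/z share lies between 41.5% and 48.8% in the 12 IP libraries and at 67.6% in the input, where Gnas holds 0.312% of the pool.

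Some alpha genes overlap opposite-strand neighbours listed for every library, which applies to the IP shares as well. Amz1 covers 13.3% of the exon length of Gna12, Nespas 8.83% of that of Gnas and Mppe1 7.63% of that of Gnal. The input share needs a further reservation. Gnas had 924 counts in the input, or 20.9 CPM, against 2304 to 3229 CPM in the wild-type IP. Gnas lies on the plus strand of chromosome 2 (chr2:174284320-174346744, mm10), and Gm20721, annotated on the opposite strand, overlaps 1142 of the 1185 coding bases of its principal transcript, or 96.4%. Gm20721 is listed in the table of the input and in none of the IP tables, and has 5 counts there. Whether reads were counted by strand is not stated, and without strand those of the 2 genes cannot be told apart. In the input 3.98% of alignments were set aside as ambiguous between genes, against 1.30% to 1.36% in the earlier and 0.581% to 0.714% in the later IP libraries. The part of the different gene lists in the low Gnas count of the input was not tested.

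One beta subunit and a pair of gamma subunits carried most of the level in their classes. Gnb1, the most widespread beta subunit, was at 472 ± 70.1 CPM per kb in the wild-type IP and held 90.2% ± 1.25 of the beta pool. Gnb5, the beta subunit that pairs with R7 RGS proteins rather than with a gamma subunit, was at 44.2 ± 9.60 and held 8.44% ± 1.23. Gnb2, Gnb3 and Gnb4 were each under 5 CPM per kb in every wild-type IP library. Gng3, the main neuronal gamma subunit, was at 719 ± 255 CPM per kb with 62.5% ± 4.02 of the gamma pool. Gng8, a gamma subunit best known from olfactory and vomeronasal neurons, was at 363 ± 222 with 29.2% ± 5.70, against 4.76% of the gamma pool in the input. Gng10 (40.9 ± 12.5) and Gng2 (34.8 ± 9.16) followed, and the other 6 gamma subunits were each below 7 CPM per kb in every wild-type IP library. Some of these levels share sequence with neighbours listed in every table: Bscl2, on the opposite strand, overlaps 24.2% of the exon length of Gng3, and Chtf18 overlaps 51.6% of that of Gng13.

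Among the RGS proteins, Rgs4, a fast-turning-over RGS protein of neurons, was at 54.0 ± 7.23 CPM per kb in the wild-type IP and Rgs8, a relative in the R4 subfamily, at 51.1 ± 4.28, a difference within the spread. Rgs10 led the R12 subfamily at 36.4 ± 11.9, Rgs6 the R7 subfamily at 32.2 ± 12.0 and Rgs17 the RZ subfamily, which prefers Gz, at 21.3 ± 5.85. Rgs2, which acts mainly on Gq, was at 31.3 ± 7.05, and Rgs19 at 18.7 ± 2.25. Rgs7bp, which anchors R7 proteins at the membrane, was at 16.3 ± 6.34. The order is sensitive to the length: with the longest transcript, Rgs10 led the RGS pool with 18.7% ± 5.64, while Gnb1 and Gng3 led their pools under either length. Rgs11, Rgs14 and Rgs9bp stayed below 0.4 CPM per kb in every wild-type IP library.

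The comparison of IP with input asks which members are more abundant in the RNA of tagged ribosomes than in the whole homogenate, which includes the tagged neurons. The IP holds ribosome-bound mRNA and the input does not select for it. Differences of cell type and of ribosome binding therefore cannot be told apart in this ratio. With a single input library there is no test, and a member counts as enriched or depleted when log2((CPM in IP + 1)/(CPM in input + 1)) is at least 1 or at most -1 in each of the 6 wild-type IP libraries. The rule was applied to the 40 members that reached 5 CPM in the input or on average in the IP. Of these, 4 were enriched, 14 were depleted and 22 were neither. Of all 11434 genes measured in this way, 4.71% were enriched and 11.1% depleted. The members' median ratio was -0.62, against -0.07 for all genes, both on the log2 scale. With trimmed-mean (TMM) scaling of the CPM, which moved the median of all genes to 0.12, the split of members was 6 enriched and 11 depleted. That of all genes was then 664 and 1001, against 538 and 1274 without the scaling. Without wild-type library 1091, the highest in non-neuronal score, the counts were 4 and 16, beside 676 and 1664 of all genes.

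The enriched members were Gnas, Gng10, Gng8 and Gnb5. Gnb5 rested at 29.6 CPM in the input and at 101, 140 and 183 CPM (lowest, median and highest) in the wild-type IP, so that every IP library was above the input; its median log2 ratio was 2.20 (range 1.73 to 2.59). Gng8 stood at 57.8 CPM in the input and at 175, 522 and 1182 in the wild-type IP, with a median log2 ratio of 3.15 (1.58 to 4.33). Its lowest value, 175, came from library 1091 and its highest from library 682. Gnas had the largest ratio of the 40 members, 6.92 (6.71 to 7.20), and it carries the overlap with Gm20721 described above.

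Gng10, a widely expressed gamma subunit, was at 1.79 CPM in the input, from 79 counts, and at 30.7, 52.2 and 81.9 CPM in the wild-type IP, with a median log2 ratio of 4.25 (3.51 to 4.89). Gng10 lies at chr4:59035088-59041903 (mm10), and Gm20503, annotated on the same strand and listed in the input table alone, covers 72.0% of its exon length and has 0 counts there. The ratio of Gng10 thus compares tables in which this locus was counted against different gene lists. Without members that overlap such a gene over at least 10% of their exons, Gng8 and Gnb5 were the 2 enriched members, and 13 were depleted.

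**Figure D3:**
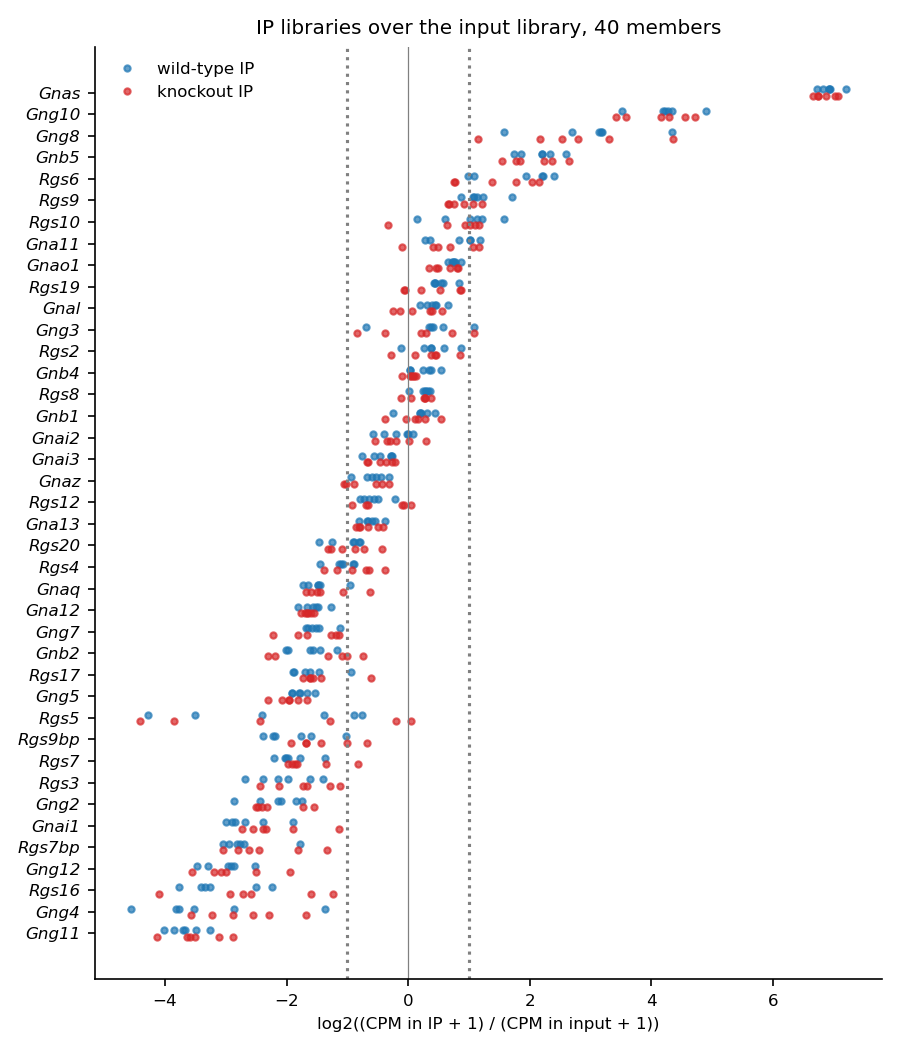
Log2 ratio of each IP library to the input for the 40 measured members, ordered by the wild-type median, with wild-type IP in blue, knockout IP in red and dotted lines at -1 and 1. Gnas, Gng10, Gng8 and Gnb5 lie beyond 1 in all 12 libraries, and Gng11, Gng4 and Rgs16 lie farthest to the left by their wild-type medians.

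The R7 group did not move as 1 block. R7 RGS proteins (Rgs6, Rgs7, Rgs9 and Rgs11) work as dimers with Gnb5, held at the membrane by Rgs7bp or Rgs9bp, the latter best known from photoreceptors. Rgs6 was at 85.5 CPM in the input and 170, 364 and 453 in the wild-type IP. Its median log2 ratio was 2.07 with a range of 0.99 to 2.39, and library 852 kept it just outside the rule. The earlier wild-type libraries 682 and 852 were at 183 and 170 CPM and the 4 later ones at 330 to 453. That median thus rests on later libraries, whereas the input, library 824, is numbered among the earlier ones. Rgs9 had a median of 1.11 (0.86 to 1.71), also just outside it. By contrast Rgs7, at 243 CPM in the input and 51.9, 60.3 and 93.5 in the wild-type IP, was depleted with a median of -1.99. Rgs7bp was at 705 CPM in the input and at 84.3, 101 and 205 in the wild-type IP, a median of -2.79, and Rgs9bp had -1.98 at a level of 6.35 CPM in the input. Rgs9bp lost its call with a pseudocount of 5, with TMM scaling and in edgeR with pooled spread, and its median was -0.95 with that pseudocount. Every wild-type IP library was thus above the input for Gnb5, Rgs6 and Rgs9 and below it for Rgs7, Rgs7bp and Rgs9bp.

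The depleted members included 6 of the 9 measured gamma subunits. Gng11 (median log2 ratio -3.68), Gng4 (-3.65), Gng12 (-2.94), Gng2 (-2.11), Gng5 (-1.79) and Gng7 (-1.55) all lay below the input, and the gamma median was -1.79. Gng5, whose value is that median, was low, at 7.16 CPM in the input and 1.16 to 1.83 in the wild-type IP. Its median ratio ranged from -2.18 to -0.94 over 13 alternative settings, and 12 kept its call. Gng2, a gamma subunit found across the brain, went from 676 CPM in the input to 92.1, 156 and 202 in the wild-type IP. Gng7, the partner of Golf in striatum, went from 55.0 CPM to 16.5, 18.2 and 24.6. Gng3 was neither enriched nor depleted, with a median of 0.39.

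Of the 11 measured alpha subunits, 2 were depleted. Gnai1, 1 of the 3 Gi genes, was at 544 CPM in the input and at 67.3, 79.7 and 146 in the wild-type IP, a median log2 ratio of -2.76 (-3.0 to -1.89). Gna12 was the other, at -1.54. The beta subunit Gnb2 was also depleted, at -1.59, and kept this call in 10 of 13 alternative settings. Gnai2 (-0.11), Gnai3 (-0.38) and Gnaz (-0.56) were neither. Gnao1, with 1692 CPM in the input and 2658, 2835 and 3077 in the wild-type IP, had a median of 0.74 in a narrow range of 0.65 to 0.86. Gnal had 0.41 and Gna11 0.92. With Gnas left out of the pool, Gnai1 held 5.56% ± 1.95 of the alpha level in the wild-type IP and 29.0% in the input. Gnao1 held 48.8% ± 1.65 and 25.5%. Shares of the same pool depend on each other, so a lower Gnai1 share by itself raises that of Gnao1. By their own median log2 ratios Gnai1 was at -2.76 and Gnao1 at 0.74.

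Of the RGS proteins, 3 were depleted. Rgs16, an inducible member of the R4 subfamily, went from 197 CPM in the input to 13.5, 19.2 and 41.1 in the wild-type IP, with a median log2 ratio of -3.29. Gm28513, listed for the input alone, overlaps 10.1% of the Rgs16 exon length, and Rgs16 is the depleted member left out in the count of 13 above. Rgs3 had -2.06 and Rgs7 is given above. Rgs17 (-1.65) and Rgs4 (-1.08) lay below the input in every wild-type library without passing -1 in each. Rgs8, at 412 CPM in the input and 414, 504 and 529 in the wild-type IP, was close to the input at 0.29.

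The knockout IP, set against the same input, gave 4 enriched and 11 depleted members, beside 3.41% and 7.11% of all 11399 genes, and the call was the same for 37 of 40 members. Its medians were 6.81 for Gnas, 4.22 for Gng10, 2.66 for Gng8 and 2.04 for Gnb5, and -2.36 for Gnai1. Both sets of ratios use the 1 input library. Gnb2, Rgs7 and Rgs9bp were the 3 members depleted in the wild-type IP alone, and whether their ratios differ is the genotype comparison below.

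Depleted members were often highest, and enriched members lowest, in the libraries with the highest non-neuronal score. Of the 14 depleted members, 8 had their highest wild-type value in library 1091, and 10 had their highest knockout value in library 1099 or 1102. Of the 4 enriched members, 3 had their lowest wild-type value in library 1091 and 3 their lowest knockout value in library 1099. Of the 22 members that were neither, 4 were highest in 1091, 7 highest in 1099 or 1102, 9 lowest in 1091 and 10 lowest in 1099. The pattern was not particular to the members: of all 1274 depleted genes 61.1% were highest in 1091 and 80.0% in 1099 or 1102, and of all 538 enriched genes 59.3% were lowest in 1091 and 70.4% in 1099. Summed astrocyte marker levels were 158 to 999 CPM in the wild-type IP, 160 to 1811 in the knockout IP and 2227 in the input, and summed GABAergic neuron markers 25.6 to 193, 75.8 to 389 and 774. The part of these cells in the members' levels was not tested.

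The knockout comparison asks whether loss of Gpr151 changes the mRNAs of the signalling partners that such a receptor acts through. Gpr151 itself was at 382, 466 and 589 CPM (lowest, median and highest) in the wild-type IP and at 121, 135 and 212 in the knockout IP, so that every knockout library was below every wild-type library. The log2 fold change was -1.63 ± 0.17 (SE), with an adjusted p of 0.00592 by edgeR's quasi-likelihood test with library set as a term. An exact permutation test of log2 CPM within the library sets gave p = 0.00714, two-sided, the smallest that 280 arrangements allow. Without knockout library 683, which leaves library 682 alone in its set, its adjusted p was 0.0538 at a log2 fold change of -1.54. In the input it was at 66.2 CPM.

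No member was called between genotypes. Of the 44 members tested, 0 passed an adjusted p of 0.05, where the smallest was 0.999 by edgeR, and 2 of 14317 genes passed, or 0.0140% (1 higher and 1 lower, 0.00698% each). At an unadjusted p under 0.05 there were 2 members (Rgs6 and Rgs14), against 438 genes or 3.06%. DESeq2 called 0 members, with 3 at an unadjusted p under 0.05 and a smallest adjusted p of 0.930. Of the 44, 23 had a log2 fold change above 0 and 21 below, with a median of 0.01, beside 0.00 for all genes, 50.4% of which were above 0. The genotypes overlapped for all 44 members, and 0.135% of 14065 genes did not overlap.

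How large a change could have been missed depends on the member's level. In 34 of 44 members the 95% interval of the log2 fold change lay within 1 of 0, that is within a factor of 2. The 17 members with at least 100 CPM in the wild-type IP had fold changes of -0.30 to 0.37, and their intervals reached 0.19 to 0.63 to either side. For Gnao1 the log2 fold change was -0.13 ± 0.09 (SE; interval -0.33 to 0.07). For Gnas it was -0.05 ± 0.10 (-0.26 to 0.16), for Gnb1 -0.05 ± 0.11 (-0.30 to 0.20) and for Rgs8 -0.04 ± 0.09 (-0.23 to 0.15). Among Gi genes Gnai2 and Gnai3 had 0.02 ± 0.11 and 0.01 ± 0.11. The interval was wider for Gng8 (-0.92 to 0.33) and Gng3 (-0.61 to 0.31).

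**Figure D4:**
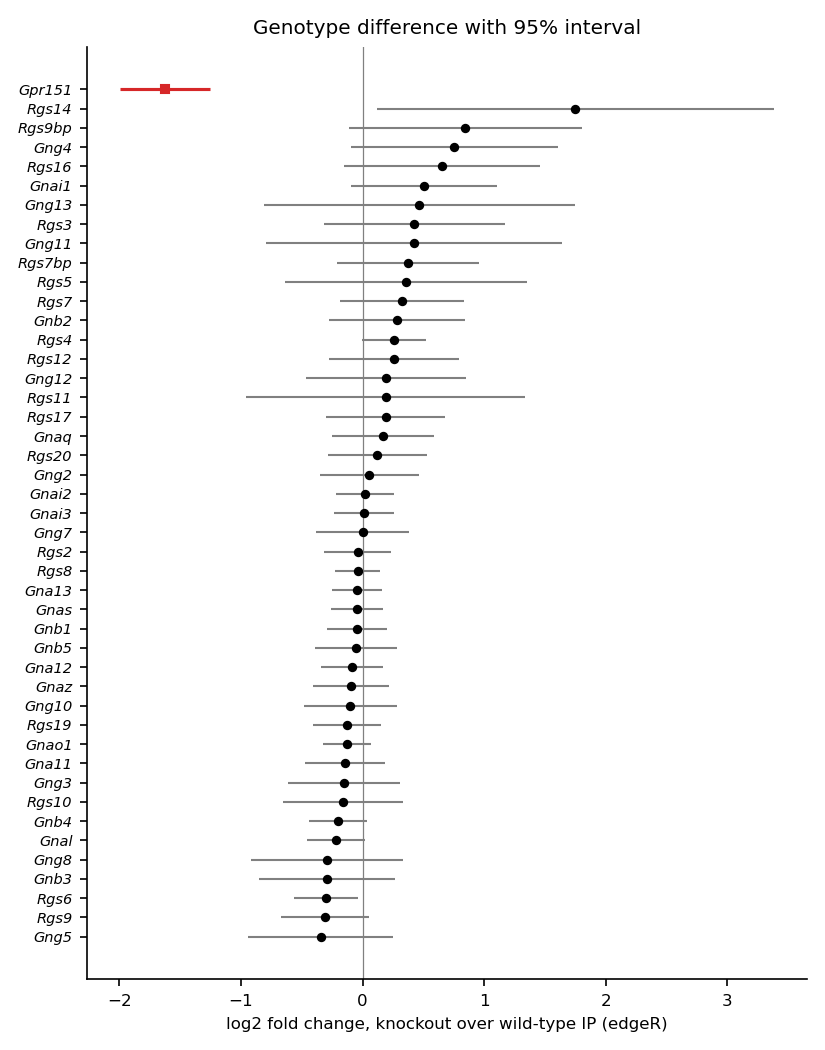
Log2 fold change of knockout over wild-type IP with its 95% interval from edgeR for the 44 tested members, black, and for Gpr151, red square at -1.63. The member intervals cover 0 except those of Rgs14 and Rgs6, neither of which passed after adjustment.

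The members with the smallest unadjusted p are given by their values, none of them past the adjusted threshold in edgeR. Rgs6, an R7 protein that acts on Gi/o signals, was at 170, 364 and 453 CPM in the wild-type IP and at 144, 260 and 383 in the knockout IP, with a log2 fold change of -0.30 ± 0.12 (interval -0.56 to -0.03). Differences of log2(CPM + 1) within the 3 library sets were -0.33 (683 minus 682), -0.24 (855 minus 852) and -0.32 (mean of the 4 knockout minus the 4 wild-type later libraries). The genotypes overlapped, and the level differed between sets: 144 to 183 CPM in the earlier and 225 to 453 in the later IP libraries. Rgs9, its relative, was at 24.2, 28.9 and 44.3 against 20.9, 23.8 and 31.1 CPM, a log2 fold change of -0.31 ± 0.17, which was -0.17 without wild-type library 1091. Gnal had -0.22 ± 0.11, with 944, 1095 and 1303 CPM in the wild-type IP and 693, 957 and 1210 in the knockout IP. Its 3 lowest IP values came from later knockout libraries, and its differences within the sets were -0.10, -0.06 and -0.30. Gnb4, a minor beta subunit, had -0.21 ± 0.11.

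In the other direction Rgs14, which binds Gi alpha and is best known from hippocampal CA2, had the largest fold change, 1.75 ± 0.75. It rests on few reads, with 0, 0.126 and 0.441 CPM in the wild-type IP and 0.107, 0.542 and 0.927 in the knockout IP, against 2.22 in the input. Rgs4 was at 130, 167 and 191 CPM in the wild-type IP and at 135, 203 and 274 in the knockout IP, a log2 fold change of 0.26 ± 0.12. The 3 knockout libraries above every wild-type library were all later ones, in which Rgs4 was higher in both genotypes. Within the library sets, in the order given for Rgs6, its differences were -0.03, 0.04 and 0.36. Gnai1 had 0.50 ± 0.28, with 67.3, 79.7 and 146 against 81.0, 105 and 246 CPM, and its highest values came from libraries 1099, 1091 and 1102. Gng4 (0.75 ± 0.39) and Rgs9bp (0.85 ± 0.44) were low, with medians of 2.95 and 0.889 CPM in the wild-type IP. For Gng4 the differences within the sets were -0.30, 0.51 and 0.88. Without libraries 1091, 1099 and 1102, the log2 fold changes were 0.26 for Gnai1, 0.10 for Rgs4 and -0.23 for Rgs6, and 0 members passed. Without library 1099 alone Gnai1 had 0.22, and without 1102 alone Rgs4 had 0.17. When edgeR was given the non-neuronal score as an added term, the log2 fold change was 0.11 for Gnai1, 0.36 for Gng4, 0.42 for Rgs9bp and 0.14 for Rgs4. Under the same model it was -0.20 for Rgs6, -0.12 for Gnal and -0.48 for Rgs9, with 0 members past the threshold.

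Most lists of markers of other cells lay mainly above 0 between genotypes, and the list of the tagged neurons below 0. In the knockout IP the listed astrocyte, oligodendrocyte and GABAergic markers that were tested, 10, 10 and 8 genes, all had log2 fold changes above 0 with 0 past the threshold. So did the 6 oligodendrocyte precursor and the 6 choroid plexus and ependymal markers tested. Above 0 were also 7 of 9 microglia, 7 of 10 endothelial and mural and 8 of 10 lateral habenula and thalamus markers. Substance P neuron markers went the other way, with 1 of 5 above 0 and a median of -0.26. Of the 12 medial habenula neuron markers, which include Gpr151, 0 lay above 0 and the median was -0.21. The 5 members with the smallest unadjusted p below 0 had -0.30 (Rgs6), -0.22 (Gnal), -0.21 (Gnb4), -0.31 (Rgs9) and -0.13 (Gnao1). The part of the share of tagged neurons in these member values was not tested.

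**Figure D5:**
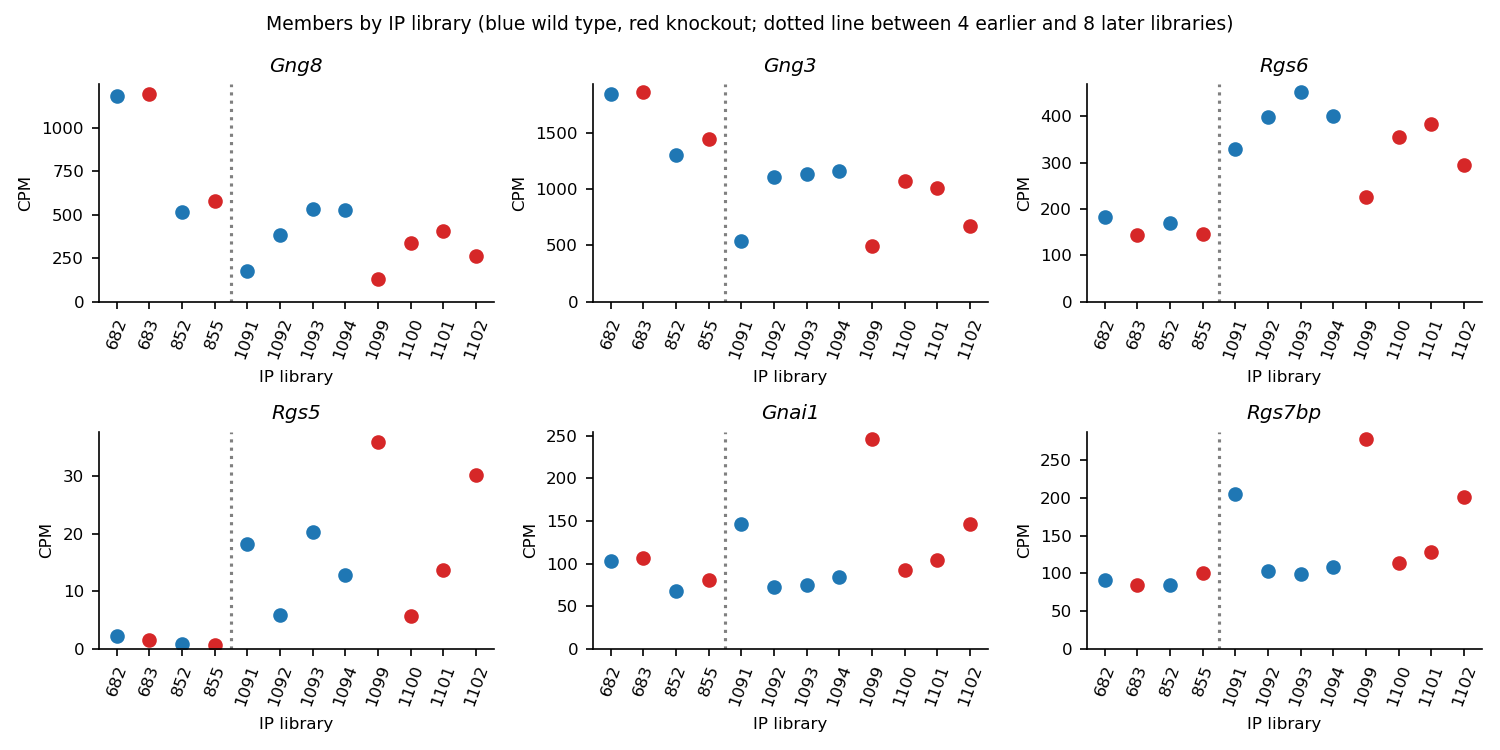
Level in CPM of Gng8, Gng3, Rgs6, Rgs5, Gnai1 and Rgs7bp in each of the 12 IP libraries, wild type in blue and knockout in red, with a dotted line between the 4 earlier and 8 later libraries. Rgs6 and Rgs5 are higher and Gng3 lower in every later library, while Gnai1 and Rgs7bp peak in library 1099.

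Several members stood apart between the earlier and the later libraries, whichever the genotype. In 9 of 44 tested members the earlier and later IP libraries did not overlap, beside 14.1% of 14065 genes. Gng3 (1303 to 1860 CPM earlier, 490 to 1159 later), Gnb1, Gnao1, Gna11, Rgs2 and Rgs19 were lower in the later libraries. Rgs6, Rgs4 and Rgs5 were higher, and Rgs5, an RGS protein of pericytes, went from 0.676 to 2.13 CPM in the earlier to 5.62 to 35.9 in the later libraries. Gng8 ran from 516 to 1196 CPM in the earlier and from 130 to 535 in the later libraries, which overlap. The non-neuronal score was 1.59 to 1.95 in the earlier and 1.54 to 3.52 in the later IP libraries. Handling, sequencing, gene list and cell content cannot be told apart between the sets. The genotype effect itself differed between earlier and later libraries in 0 of 44 members by edgeR's interaction test, with 0 at an unadjusted p under 0.05, against 0% of all genes past adjustment and 2.27% at an unadjusted p under 0.05. DESeq2 gave 0 members in both counts.

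Other direct partners of receptors and G proteins, such as receptor kinases, arrestins, phospholipase C beta enzymes and the retinal and taste G protein subunits, formed a list of 40 genes. Of the 28 tested, 0 passed by edgeR and 0 had an unadjusted p under 0.05, 11 lay above and 17 below 0, and the median log2 fold change was -0.02. The pair with the smallest p was Rgs22, an RGS protein best known from testis (1.25 ± 0.70), and Gprin1, a neurite protein that binds activated Gi/o alpha (-0.26 ± 0.16). Against the input, 24 were measured: Axin2, a scaffold of the Wnt pathway with an RGS domain, was enriched at a median log2 ratio of 1.73. Gprin3 (-4.17) and Gpsm2, which binds GDP-bound Gi alpha (-1.34), were depleted, and 21 were neither, with a list median of -0.05.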

How the data were processed

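The deposited files hold raw counts per gene symbol, 1 table a library. The submitters' processing notes name the build mm10 and the tools HTSeq, DESeq2 and STAR 2.3.0e. Per the labels' protocols cDNA was amplified with the Ovation RNA-Seq System V2. The strand setting and the annotation of the counting were not given in the sources used here. Because the tables list different symbols, the genotype fit used the 23857 symbols shared by the 12 IP libraries and CPM the 22682 shared by all 13. Summary lines and an unnamed row were left out. Genotypes were compared in R 4.3.3 with edgeR 4.0.16 (robust quasi-likelihood, TMM, filterByExpr, library set as a term), adjusted by Benjamini-Hochberg over 14317 genes at 0.05, and with DESeq2 1.42.0 as an alternative. SE and intervals come from that fit, which was tested on simulated data. IP over input used a pseudocount of 1 CPM, a fold of 2 in each library and a minimum of 5 CPM. Exon lengths, positions, overlaps and coding sequences come from GENCODE M21 (GRCm38). Named were the members enriched or depleted, the 5 smallest p in each direction and the class leaders per length. The members, lists and rules were chosen with earlier results of these data known. Nothing states that libraries of 1 genotype came from separate preparations beyond the pools of mice, so p-values measure the spread between these libraries. Floors cover counting error only.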

Additional observations from a re-analysis of the deposited data

Results flagged for a closer look

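In 4 of 64 groups of 6 libraries tested, 1 library stood apart from the other 5 by Dixon's criterion; chance flags about 1 in 20. In the wild-type IP, Rgs7bp was at 205 CPM in library 1091, where the next highest library had 108, and Gnb1 was at 1475 CPM in the same library, where the next lowest had 2010. In the knockout IP, library 1099 had the lowest Rgs10, 23.8 CPM beside 47.9 in the next library, and the highest Rgs17, 339 CPM beside 191. These are the libraries with the highest non-neuronal marker level in each genotype, 2.88 and 3.52, and the part of that level in the 4 values was not tested.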

How the results depend on the processing

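The count of members called between genotypes was 0 under every alternative run. The count of all genes called was 2 in the reported fit, 12 with DESeq2, 1 with a filter of at least 1 CPM in 6 libraries, 0 in the 8 later libraries alone (Gpr151 -1.54, adjusted p 0.424) and 1 without libraries 1091, 1099 and 1102, an alternative added after seeing the data. Leaving out 1 library at a time gave 0 to 2, the 0 without knockout library 683. Over 23 alternatives each (21 for Rgs14), none of the 10 named members' fold changes changed sign; Rgs4 ranged from 0.00 to 0.37, and the smallest adjusted p of any was 0.650. At a fold of 1.5, 7 members were enriched over input and 19 depleted, beside 952 and 1969 of all genes. Enriched were 2 without members overlapping a gene listed only for the input (added later). Leaving out 1 library gave 4 to 5 enriched and 14 to 16 depleted, beside 540 to 676 and 1285 to 1664 of all genes. TMM scaling gave 6 and 11, and 664 and 1001 of all genes against 538 and 1274. With pooled spread edgeR gave 5 and 15, beside 1019 and 1213 of all genes, and did not call Gng8. The Gi/o/z share was 39.6% by longest transcript, 43.2% without length scaling, 66.0% without Gnas and 45.01% to 45.98% with 1 library left out. The cause was not tested. No paired analysis was possible because replicate numbers follow the accession order; the library set term already sets 683 beside 682 and 855 beside 852, and without it the counts were again 2 genes and 0 members. The single input library limits every ratio.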
